A study of Mus musculus with 27 samples.

Results

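Gene expression in the fetal brain of Cav1-null mice was compared between gestational day (d) 12 and d17, the first and the last day of a series that also held d15 and 2 other strains. The comparison was set by the strain and day given in the labels and took 6 of the 27 libraries of the series, 3 of d12 and 3 of d17. All 6 came from B6.Cg-Cav1tm1Mls/J mice, a congenic line on the C57BL/6J background in which the gene of caveolin-1 is disrupted in every cell, so that the fetuses of both days carried the same deletion and differed in age alone by design. Every library was labelled female and was made from whole dissected brain, with the day of the vaginal plug counted as day 1. Polyadenylated RNA was sequenced, and the labels name no treatment. C57BL/6J and AKR/J fetuses of the same days and the Cav1-null fetuses of d15 were used only where named. The sources do not say whether the 3 fetuses of a day came from separate dams or litters, so p-values measure the spread between these libraries, which may in part be technical.

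In this window of gestation, the dividing progenitors that line the ventricles, the radial glia, give rise first to neurons and later to astrocytes and oligodendrocyte precursors. Newborn neurons leave the cell cycle, migrate, extend axons and begin to build synapses. In the same days the red cells in the blood vessels of the embryo change from primitive cells of the yolk sac, which carry embryonic globins, to definitive cells of the fetal liver.

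Levels are in CPM, a gene's count scaled to 1000000 counted reads of its library. The 6 libraries held 27068000 to 33795400 reads on genes. Cav1 (ENSMUSG00000007655, chr6:17306140-17341451 in GRCm39) was at 0.0714, 0 and 0.237 CPM on d12 and 0.278, 0.406 and 0.551 CPM on d17, which are 0 to 16 reads, and at 6.36 to 43.0 CPM in the 18 libraries of the other strains. Each brain marker looked at was present in all 6 libraries. The pan-neuronal tubulin gene Tubb3 was at 880.2, 1151 and 882 CPM on d12 and 697, 924 and 857 CPM on d17, and the interneuron enzyme gene Gad1 was at 113, 121 and 98.1 CPM on d12 and 137, 194 and 153 CPM on d17.

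Of the d12 libraries, 2 stood apart. Replicate 2 was labelled female but had 3.67 CPM of Xist, the RNA of the inactive X chromosome, against 4360 to 6291 CPM in the other 8 Cav1-null libraries, and 425 CPM over 4 genes of the Y chromosome, against at most 0.21 CPM. Replicate 3 had less of Neurod6, a factor gene of young forebrain neurons, with 67.1 CPM against 234 and 222 CPM in the other d12 libraries, and more reads of connective tissue markers, with 443, 289 and 1806 summed CPM in the 3 d12 libraries and 287, 155 and 182 on d17. Choroid plexus markers summed to 951 CPM in this library and to 391 and 340 CPM in the other d12 libraries, microglial markers to 221 against 103 and 102 CPM, and skeletal muscle markers to 92.6 against 29.2 and 26.6 CPM. Correlations of its log2 CPM with the other d12 libraries were 0.978 and 0.982, against 0.994 between those. Where leaving out replicate 2, replicate 3 or both changed the call of a gene named for its net change, the value in at least 1 of these fits is given beside it. The fit without both holds 1 library of d12, which is assumed to vary as the d17 libraries do.

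**Figure D1:**
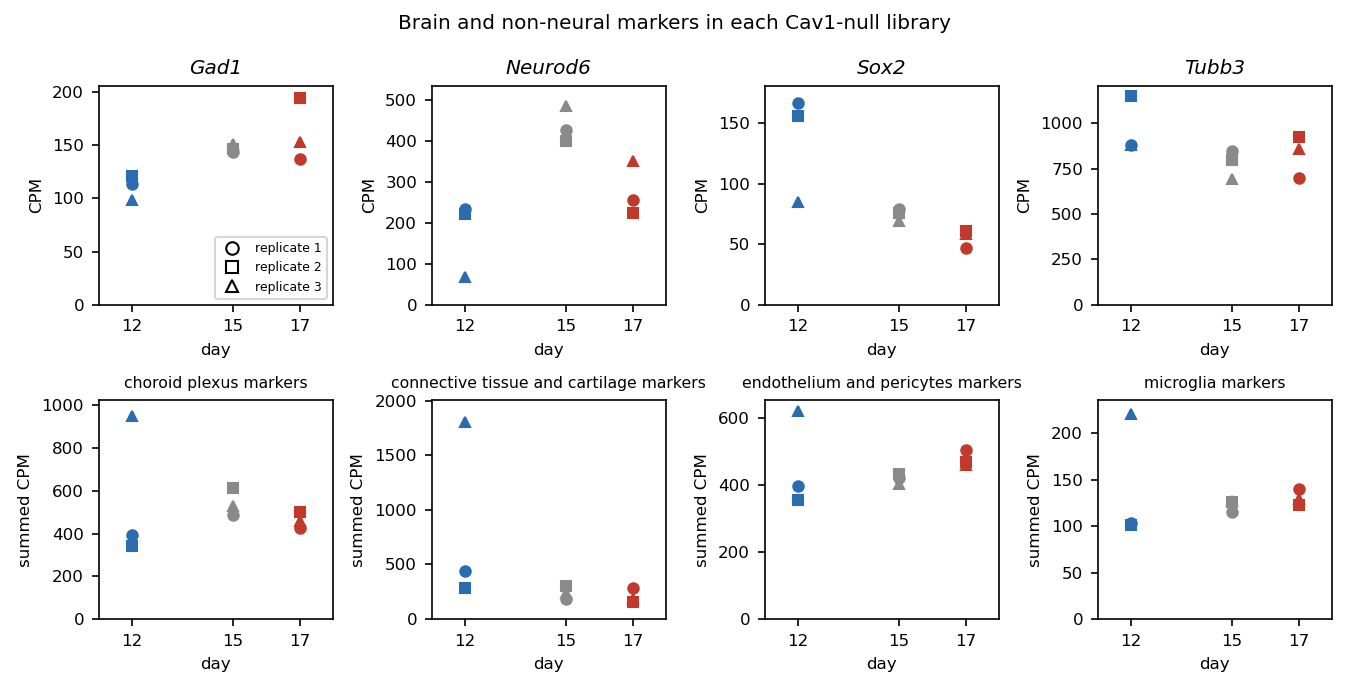
Levels of brain marker genes in CPM and summed levels of non-neural marker lists (y axes) in each of the 9 Cav1-null libraries by gestational day (x axis), 1 point per library. Replicate 3 of d12 is low in Neurod6, at 67.1 CPM, and high in connective tissue markers, at 1806 summed CPM.

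Genes were called DE at a Benjamini-Hochberg adjusted p under 0.05 in edgeR's quasi-likelihood test, and each fold change is d17 over d12 on the log2 scale. Of 20189 genes tested, 8888 (44.0%) were DE, with 4190 (20.8%) higher on d17 and 4698 (23.3%) lower. The libraries of the 2 days did not overlap in CPM for 11220 genes (55.6%). The median log2 fold change over all genes was -0.04. The log2 fold change was at least 1 in size for 3827 DE genes, of which 2329 rose and 1498 fell. Rises were fewer in all with the 6 libraries, but not without the d12 libraries that stood apart, with 3797 rises and 3560 falls without replicate 2, 5314 and 5303 without replicate 3, and 4403 and 3977 without both. Without d12 replicate 2 the count was 7357 DE genes, of which 6942 were DE in all 6 libraries too. Without d12 replicate 3 it was 10617, of which 8565 were shared, and without both it was 8380, of which 7147 were shared. No shared DE gene changed direction in any of these 3 fits. The biological coefficient of variation, the spread between libraries beyond counting error, was 21.6% with all 6 libraries and 12.5% without d12 replicate 3.

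The 12 largest rises held genes of maturing neurons and of astrocytes, taking DE genes whose days did not overlap and whose log2 CPM averaged 3 or more. Gda (chr19:21368671-21450809), the gene of guanine deaminase, was at 1.18, 1.09 and 0.592 CPM on d12 and 37.6, 36.2 and 35.3 CPM on d17 (log2 fold change 5.21, SE 0.25, adjusted p = 6.1e-06). Thy1 (chr9:43954332-43959880), which encodes a surface glycoprotein of neurons, was at 1.21, 0.698 and 1.24 CPM on d12 and 28.6, 26.7 and 25.9 CPM on d17 (log2 fold change 4.64, SE 0.22, adjusted p = 6.1e-06). In both genes every d17 library lay far above every d12 library, where the choice itself required no overlap. The copine gene Cpne7, the gene of the calcium-binding protein Caln1 and Car8, a carbonic anhydrase-related gene known from Purkinje cells, rose by 4.22, 3.92 and 4.09, and Mal2, whose product acts in membrane traffic, by 4.27. Genes of astrocytes in the group were Aqp4, the water channel, at 2.03, 1.76 and 4.41 CPM on d12 and 54.7, 37.4 and 38.4 CPM on d17 (log2 fold change 3.95, SE 0.33, adjusted p = 5.6e-05), and the adhesion gene Hepacam (4.15). The largest spread was that of Ptgds, the prostaglandin D synthase gene, with 2.96, 2.55 and 10.9 CPM on d12 and 143, 34.8 and 86.5 CPM on d17 (log2 fold change 3.98, SE 0.65, adjusted p = 0.0015). Its days did not overlap, which the choice required. However, d17 replicate 2 was far below the other d17 libraries and d12 replicate 3 above the other d12 libraries. The group also held Shfl (3.97), known as an antiviral factor, and the lncRNA genes B230209E15Rik (from 1.77 ± 0.374 to 43.8 ± 0.541 CPM, SD of 3 libraries) and Gm10419 (3.92). The handling of strand in the counting is not given in the sources used here, so reads of an lncRNA gene and of a gene that overlaps it on the other strand cannot be told apart.

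The 12 largest falls were led by the embryonic globins. Hbb-y (chr7:103500956-103502423) was at 3481, 3124 and 3072 CPM on d12 and 0.800, 0.296 and 0.413 CPM on d17 (log2 fold change -12.67, SE 0.29, adjusted p = 2.0e-07), and Hba-x (chr11:32226400-32228116) at 183, 172 and 171 CPM on d12 and 0.417, 0.406 and 0.379 CPM on d17 (log2 fold change -8.81, SE 0.13, adjusted p = 9.6e-09). Hbb-bh1 had 4201 reads in the 3 d12 libraries and 2 reads in the 3 d17 libraries, a ratio in CPM of 1881 with a 95% exact interval of 520.4 to 15536 that covers counting error only. Slc4a1, the anion exchanger of the red cell membrane, fell by 3.29 on the log2 scale. The others were mostly transcription factor genes of early development. Tal2, of midbrain GABAergic precursors, was at 50.5, 77.2 and 51.6 CPM on d12 and 2.05, 1.48 and 1.72 CPM on d17 (log2 fold change -5.14, SE 0.25, adjusted p = 6.1e-06). Dbx1, a homeobox gene of progenitors, was at 13.1, 16.6 and 17.7 CPM on d12 and 0.487, 0.406 and 0.930 CPM on d17 (log2 fold change -4.73, SE 0.32, adjusted p = 2.3e-05). The proneural gene Neurog2 and Nhlh1, a gene of newborn neurons, changed by -3.46 and -3.27, and Hsd3b6, a steroid dehydrogenase gene, by -4.69. Hmga2, a chromatin protein gene active in young progenitors, was at 51.1, 37.7 and 45.8 CPM on d12 and 2.68, 3.69 and 2.38 CPM on d17 (log2 fold change -3.99, SE 0.19, adjusted p = 6.1e-06). These genes were low in every d17 library, and the lack of overlap between the days was a condition of the choice. Twist1 and Lum, a factor and a matrix proteoglycan gene of connective tissue, were the genes of the group that leaned on d12 replicate 3. Twist1 was at 3.85, 3.28 and 46.3 CPM on d12 and 1.49, 0.591 and 1.07 CPM on d17, and its log2 fold change of -4.08 was -1.83 without that library (adjusted p = 0.00045). Lum was at 37.8, 23.2 and 186 CPM on d12, and its value went from -3.55 to -2.18.

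**Figure D2:**
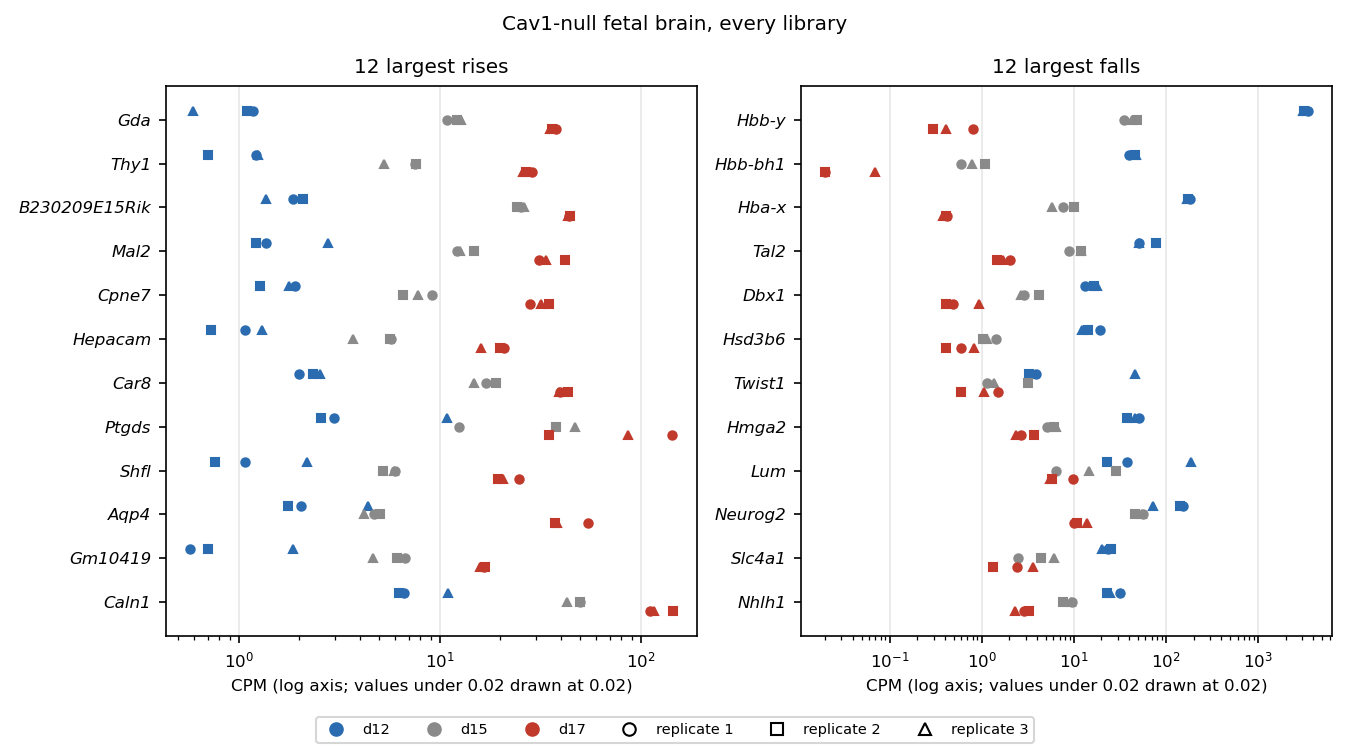
CPM (log x axis, values under 0.02 drawn at 0.02) of the 12 largest rises and the 12 largest falls between d12 and d17, with 1 point for each Cav1-null library of d12, d15 and d17. Gda went from 0.954 ± 0.316 to 36.4 ± 1.17 CPM (mean ± SD, n = 3) and Hbb-y from 3226 ± 223 to 0.503 ± 0.264 CPM.

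Genes of the cell division cycle fell almost without exception. All 49 DNA replication genes were tested and 48 were DE and lower on d17, and so were 54 of 54 genes of mitosis, against 23.3% of all genes. The median log2 fold changes of the lists were -1.74 and -2.43, beside -0.04 over all genes. DNA replication genes had 3106, 3006 and 2201 summed CPM on d12 and 1019, 1049.8 and 1109 on d17, and mitosis genes had 5867, 5704 and 3463 summed CPM on d12 and 1008, 1015 and 1080.0 on d17. Within d12, replicate 3 was the lowest of the 3 libraries in both sums, and it still lay above every d17 library. As for every gene group here, fewer cells of a type and less RNA per cell cannot be told apart in RNA of whole tissue.

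Among replication genes, the helicase subunit genes Mcm2 and Mcm3 fell by 2.51 and 2.68. Uhrf1, which recruits the maintenance methyltransferase to newly copied DNA, was at 87.6, 70.3 and 54.5 CPM on d12 and 12.1, 12.2 and 14.2 CPM on d17 (log2 fold change -2.51, SE 0.19, adjusted p = 3.3e-05). Cdc6, which loads the helicase at origins, was at 20.4, 15.2 and 11.5 CPM on d12 and 2.33, 2.44 and 3.13 CPM on d17 (log2 fold change -2.62, SE 0.26, adjusted p = 0.00012). Dnmt1, the maintenance methyltransferase, was the member that did not pass the test, at 140.2, 118 and 116 CPM on d12 and 99.7, 117 and 103 CPM on d17 (adjusted p = 0.061). It passed at 0.0099 without d12 replicate 3 and without both libraries (-0.43, adjusted p = 0.013). Among mitosis genes, the cyclin gene Ccnb1 was at 152, 167 and 88.9 CPM on d12 and 15.0, 18.7 and 17.3 CPM on d17 (log2 fold change -3.06, SE 0.25, adjusted p = 4.7e-05). Ube2c, which helps to mark mitotic cyclins for destruction, was at 119, 110.2 and 71.4 CPM on d12 and 12.2, 12.2 and 14.7 CPM on d17 (log2 fold change -3.00, SE 0.21, adjusted p = 2.7e-05). Top2a, the topoisomerase that untangles sister chromatids, and Cdca3, which triggers mitotic entry, changed by -2.89 and -2.93. Of 14 genes of G1 control tested, 10 fell and 2 rose, beside 23.3% of all genes lower and 20.8% higher. The cyclin D1 gene Ccnd1 was at 98.3, 107 and 76.3 CPM on d12 and 16.9, 17.2 and 17.8 CPM on d17 (log2 fold change -2.49, SE 0.15, adjusted p = 1.3e-05), and its partner kinase gene Cdk4 at 588, 581 and 466 CPM on d12 and 159.7, 168 and 188 CPM on d17 (log2 fold change -1.71, SE 0.13, adjusted p = 3.5e-05). Rises were seen in Cdkn1a, the p21 inhibitor of cyclin-dependent kinases, from 12.0 ± 1.47 to 30.9 ± 7.31 CPM (1.31 ± 0.17, adjusted p = 0.00046), and in the pocket protein gene Rbl2 (0.43 ± 0.09, adjusted p = 0.0055). The inhibitor gene Cdkn1c went the other way, with 73.0, 93.4 and 185 CPM on d12 and 19.1, 21.8 and 22.7 CPM on d17 (log2 fold change -2.50, SE 0.30, adjusted p = 0.00027), and was highest in d12 replicate 3. Rb1, the retinoblastoma gene, was at 109, 104 and 94.2 CPM on d12 and 105, 97.5 and 110.1 CPM on d17 and was not DE.

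Promoters of the division genes were read to show the sequences upstream of the start sites. Start-site windows of RefSeq (250 bases before to 50 after the start, build GRCm38.p6) were found for 12042 protein-coding genes among those tested, and 3 kinds of motif were searched on both strands. The E2F motif, in the forms TTTGGCGC, TTTGCCGC, TTTCGCGC and TTTCCCGC, was in the windows of 4.40% of all these genes, 6.70% of those lower on d17, 2.75% of those higher on d17, 16 of 40 DNA replication genes and 5 of 45 mitosis genes. The CHR motif TTTGAA was in 14.4%, 16.6% and 13.7% of the same groups, in 8 of 40 DNA replication genes and in 33 of 45 mitosis genes. CCAAT was in 42.5%, 46.7% and 38.8%, in 25 of 40 and in 32 of 45. In the table of 32851 windows as a whole, the shares were 2.26% for E2F, 17.9% for CHR and 37.4% for CCAAT. These are matches of letters and not sites of binding, and they were not tested. The 250 bases up to the start are printed below for 5 of the genes with the largest falls of the 2 lists, from 5′ to 3′ on the strand of the gene, with E2F, CHR and CCAAT matches in capitals. For Uhrf1, 1 of its 2 windows is shown.

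Cdc6 chr11:98907901-98908150 (+): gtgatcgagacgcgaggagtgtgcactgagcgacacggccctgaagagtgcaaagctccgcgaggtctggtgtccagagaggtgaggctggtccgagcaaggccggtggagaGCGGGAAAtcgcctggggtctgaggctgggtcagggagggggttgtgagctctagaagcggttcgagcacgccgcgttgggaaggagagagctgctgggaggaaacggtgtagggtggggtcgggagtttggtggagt

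Uhrf1 chr17:56304063-56304312 (+): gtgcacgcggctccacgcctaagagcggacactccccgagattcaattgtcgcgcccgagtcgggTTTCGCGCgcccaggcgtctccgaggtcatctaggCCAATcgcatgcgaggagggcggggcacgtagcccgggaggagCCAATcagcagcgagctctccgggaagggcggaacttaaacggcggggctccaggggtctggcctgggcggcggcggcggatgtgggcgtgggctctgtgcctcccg

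Ccnb1 chr13:100786487-100786736 (-): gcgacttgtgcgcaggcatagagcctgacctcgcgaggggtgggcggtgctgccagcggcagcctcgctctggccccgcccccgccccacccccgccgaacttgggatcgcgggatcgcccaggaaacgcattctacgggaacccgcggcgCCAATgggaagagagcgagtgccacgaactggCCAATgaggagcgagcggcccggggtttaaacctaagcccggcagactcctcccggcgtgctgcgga

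Ube2c chr2:164769679-164769928 (+): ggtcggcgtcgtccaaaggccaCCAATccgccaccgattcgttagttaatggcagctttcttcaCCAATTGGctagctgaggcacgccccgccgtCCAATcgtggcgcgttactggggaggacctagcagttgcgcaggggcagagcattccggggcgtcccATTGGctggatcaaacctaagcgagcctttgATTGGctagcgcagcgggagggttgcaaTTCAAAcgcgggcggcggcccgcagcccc

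Top2a chr11:99024190-99024439 (-): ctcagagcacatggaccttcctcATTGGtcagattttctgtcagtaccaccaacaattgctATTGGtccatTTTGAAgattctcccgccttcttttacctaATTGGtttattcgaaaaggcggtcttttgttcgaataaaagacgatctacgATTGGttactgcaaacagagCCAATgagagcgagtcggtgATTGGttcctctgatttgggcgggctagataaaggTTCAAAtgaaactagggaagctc

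The Cdc6 and Uhrf1 windows hold an E2F form each, at 138 and 185 bases before the start. They were chosen after the matches were seen, and the windows of Mcm2 and Mcm3 and the other window of Uhrf1, not printed, hold none. The windows of Ccnb1, Ube2c and Top2a hold CCAAT in 1 or the other direction. Those of Ube2c and Top2a also hold TTTGAA or its reverse complement close to the start, in Ube2c at 29 bases. The windows of Ccnb1 and of Cdca3, the latter not printed, hold no such match.

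Genes of radial glia, intermediate progenitors and the Notch pathway fell for the most part. Of 18 radial glia genes, 14 fell and 2 rose, beside 23.3% of all genes lower and 20.8% higher, with a list median of -1.41. Nes, the intermediate filament gene of neural stem cells, was at 229, 213 and 147 CPM on d12 and 33.2, 42.9 and 38.2 CPM on d17 (log2 fold change -2.42, SE 0.19, adjusted p = 3.7e-05). Sox3, Prom1 and Gli3, a factor of neural progenitors, an apical membrane gene and a hedgehog pathway factor, changed by -3.03, -2.23 and -2.17. The lipid carrier gene Fabp7 and Tnc, a matrix glycoprotein gene, both also known in later glia, were the members that rose. Tnc was at 16.4, 15.9 and 57.4 CPM on d12 and 144, 101 and 119 CPM on d17 (log2 fold change 1.99, SE 0.44, adjusted p = 0.0068), with d12 replicate 3 the highest of its day. Ptprz1, a receptor phosphatase gene shared by radial glia and oligodendrocyte precursors, was at 312, 364 and 183 CPM on d12 and 453, 393 and 439.7 CPM on d17 and was not DE, although its days did not overlap. It rose without d12 replicate 2 (0.80, adjusted p = 0.031) and without both libraries (0.43, adjusted p = 0.025). Of 12 genes of intermediate progenitors and proneural factors, 10 fell, against the same 23.3%. Neurog2 had 153, 142 and 73.3 CPM on d12, 57.1, 46.7 and 54.5 on d15 and 10.1, 10.8 and 13.9 on d17. Neurod1, at 39.6, 42.5 and 37.9 CPM on d12 and 38.0, 29.0 and 35.3 CPM on d17, was not DE with all 6 libraries and fell without d12 replicate 3 (-0.35, adjusted p = 0.036), and Atoh1, the factor gene of the rhombic lip, was at 0.143, 0 and 3.73 CPM on d12 and 0.904, 0.739 and 0.413 CPM on d17, not DE with d12 replicate 3 and higher on d17 without it (log2 fold change 3.21, adjusted p = 0.0084), a fitted value that rests on few reads.

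Of 26 Notch pathway genes, 20 fell and 3 rose, beside 23.3% of all genes lower and 20.8% higher, with a list median of -0.96. Among ligands, Dll1 was at 93.0, 84.5 and 54.9 CPM on d12 and 22.8, 26.6 and 27.4 CPM on d17 (log2 fold change -1.65, SE 0.20, adjusted p = 0.00031), and Dll3 changed by -2.06, while Jag2 rose from 48.7 ± 11.7 to 96.2 ± 14.9 CPM (0.94 ± 0.16, adjusted p = 0.0017). Of the fringe enzymes that modify the receptor, Mfng fell by 2.66 and Rfng rose by 0.71. The target gene Hes1, which keeps progenitors undifferentiated, was at 26.2, 26.2 and 23.1 CPM on d12 and 6.74, 8.31 and 6.13 CPM on d17 (log2 fold change -1.88, SE 0.16, adjusted p = 5.9e-05). Hes7, known as a gene of the somite clock, was DE at a low level, with 0.250, 0.121 and 0.237 CPM on d12 and 1.04, 1.63 and 0.792 CPM on d17. No d17 library of Dll1, Dll3, Mfng or Hes1 reached the range of d12.

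Of 9 genes known as timing factors of development, 6 fell, beside 23.3% of all genes. Besides Hmga2, these included the mRNA-binding protein genes Igf2bp1 and Igf2bp2, at 108, 86.1 and 83.6 CPM on d12 and 26.1, 24.5 and 28.6 CPM on d17 and at 109, 91.0 and 94.5 CPM on d12 and 27.8, 28.3 and 24.3 CPM on d17 (-1.86 and -1.92 on the log2 scale). Lin28b, a brake on the let-7 microRNAs, was at 52.3, 48.2 and 51.4 CPM on d12 and 56.0, 66.5 and 53.4 CPM on d17 and was not DE (adjusted p = 0.23), and Lin28a was at 1.54 CPM or less in all 6 libraries. Among the 5 factors that open gliogenesis, Nfix rose from 60.2 ± 28.7 to 158 ± 28.2 CPM (1.34 ± 0.30, adjusted p = 0.0065) and Zbtb20 rose (0.40 ± 0.14, adjusted p = 0.041), while Nfia and Sox9 fell (-0.67 ± 0.19, adjusted p = 0.022, and -1.33 ± 0.15, adjusted p = 0.00020). Nfib was at 414, 314 and 242 CPM on d12 and 312, 294 and 353 CPM on d17, with no difference found with all 6 libraries, and it fell without both d12 libraries that stood apart (-0.40, adjusted p = 0.027). The rise of Zbtb20 did not pass without d12 replicate 2, without replicate 3 or without both (adjusted p = 0.062, 0.051 and 0.20). Without both, the value of Nfix was 0.74 and that of Nfia -1.10. Of 38 genes of regional patterning and Hox genes, 21 had enough reads to be tested and 10 fell, beside 23.3% of all genes, among them Gbx2, at 12.2, 12.1 and 13.1 CPM on d12 and 2.16, 4.69 and 3.17 CPM on d17 (log2 fold change -1.95, SE 0.27, adjusted p = 0.00059), a factor of the midbrain-hindbrain border, and Otx1, of forebrain and midbrain (-1.97). En1, En2 and Pax5, factors of the midbrain and cerebellum, were not DE and were highest in d12 replicate 3, with 3.96, 3.25 and 21.6 CPM of En1 on d12. Without that library 8 patterning genes rose, where 5314 of all 20889 genes did, and En1 was among them (0.66, adjusted p = 0.022). The part of the low Neurod6 level of that library in these values was not tested.

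Of 19 genes of cortical projection neurons, 6 rose, 1 fell and 12 were not DE, beside 20.8% of all genes higher and 23.3% lower. Without d12 replicate 3 the number that fell was 6. Mef2c, an activity-regulated factor gene of cortical neurons, was at 35.9, 38.3 and 32.8 CPM on d12 and 224, 198 and 275 CPM on d17 (log2 fold change 2.66, SE 0.14, adjusted p = 8.6e-06). Ldb2 and Rorb, genes of deep and of middle cortical layers, rose by 1.35 and 1.11, and Pou3f2 fell (-0.37 ± 0.12, adjusted p = 0.032). The fall of Pou3f2 did not pass without d12 replicate 2 (-0.23, adjusted p = 0.17). Zbtb18 and Neurod6 were at 358, 309.7 and 146 and at 234, 222 and 67.1 CPM on d12, lowest in replicate 3, and were not DE. Without that library Zbtb18 rose (0.45, adjusted p = 0.031). Of 24 GABAergic neuron genes, 7 rose and 2 fell, beside 20.8% and 23.3% of all genes. Calb2, the calretinin gene, was at 16.1, 17.5 and 13.0 CPM on d12 and 46.9, 59.6 and 58.5 CPM on d17 (log2 fold change 1.77, SE 0.16, adjusted p = 6.6e-05), and the factor gene Npas1, the peptide gene Npy and the calbindin gene Calb1 rose by 1.82, 1.80 and 0.91. The factor gene of the ventral forebrain Nkx2-1 and Sp8 fell, at 71.1, 74.0 and 15.9 CPM on d12 and 11.4, 21.6 and 10.1 CPM on d17 for Nkx2-1 (log2 fold change -1.97, SE 0.54, adjusted p = 0.018), where 1 d17 library overlapped d12 replicate 3. Neither passed without d12 replicate 2 (adjusted p = 0.059 for Nkx2-1 and 0.059 for Sp8), while both did without replicate 3. Dlx1 was at 297, 290.4 and 63.0 CPM on d12 and 131, 146 and 146 CPM on d17 and was not DE with all 6 libraries, but fell without replicate 3 (-1.14, adjusted p = 1.1e-07). The count of GABAergic genes that fell was 11 without that library, 10 without both and 0 without d12 replicate 2, so that it rested on single libraries.

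Among genes of monoamine and striatal neurons, 6 of 14 rose and 4 fell, beside 20.8% and 23.3% of all genes. The dopamine receptor genes of the striatum, Drd2 and Drd1, rose from 1.48 ± 0.429 to 11.7 ± 3.14 CPM (2.92 ± 0.30, adjusted p = 0.00015) and from 1.31 ± 0.321 to 7.95 ± 0.904 CPM (2.56 ± 0.26, adjusted p = 0.00012). Slc6a3, the dopamine transporter gene, rose from 0.923 ± 0.356 to 4.50 ± 0.551 CPM, while Th and Ddc, the enzymes that make dopamine, fell (-0.93 ± 0.22, adjusted p = 0.0095, and -0.84 ± 0.24, adjusted p = 0.021). Th was at 7.74, 9.26 and 10.1 CPM on d12 and 3.82, 6.17 and 4.72 CPM on d17, so that the enzyme gene and the transporter gene moved in opposite directions. The fall of Ddc did not pass without d12 replicate 2 (adjusted p = 0.064), and neither Th nor Ddc passed without both d12 libraries that stood apart (adjusted p = 0.053 and 0.079). The serotonin genes Slc6a4 and Tph2 were not DE with all 6 libraries, at 1.21, 0.212 and 4.97 CPM on d12 and 6.15, 6.76 and 5.72 CPM on d17 for Slc6a4, and rose without d12 replicate 3 (3.09 and 2.66, adjusted p = 2.0e-05 and 2.2e-05). Of 19 neuropeptide genes tested, 6 rose and 2 fell, beside 20.8% and 23.3% of all genes, and 12 rose without d12 replicate 3. Nts, the neurotensin gene, was at 6.39, 8.07 and 3.67 CPM on d12 and 46.5, 34.6 and 64.2 CPM on d17 (log2 fold change 2.95, SE 0.33, adjusted p = 0.00021). Avp, the vasopressin gene, had 0.182 CPM or less on d12 and 2.82, 5.28 and 2.76 CPM on d17 (adjusted p = 0.00050), and Cck rose (1.70 ± 0.42, adjusted p = 0.011). The hypothalamic genes Pomc and Cartpt fell, Pomc from 5.46 ± 2.36 to 1.45 ± 0.247 CPM (-1.97 ± 0.38, adjusted p = 0.0034) and Cartpt (-1.19 ± 0.30, adjusted p = 0.011), which did not pass without both d12 libraries (adjusted p = 0.12). Penk was at 2.68, 2.12 and 21.7 CPM on d12 and 11.6, 11.8 and 10.6 CPM on d17, with d12 replicate 3 above every d17 library, and rose by 2.17 without it.

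The neuronal cytoskeleton was already high on d12. Its 29 genes had 14514, 16901 and 15051 summed CPM on d12 and 17088, 20316 and 19087 on d17. Of these genes 13 were higher, 2 lower and 14 not DE, beside 20.8% of all genes higher and 23.3% lower. The main tubulin genes of young neurons, Tuba1a and Tubb2b, were at 1592, 2169.7 and 1725 CPM on d12 and 1393, 1603 and 1600.5 CPM on d17 and at 1764, 2229 and 1794 CPM on d12 and 1514, 1928 and 1724 CPM on d17 and were not DE, and nor was Dcx, the doublecortin gene of migrating neurons, at 1473, 1538 and 1488 CPM on d12 and 1750.5, 1909.7 and 1905 CPM on d17 (adjusted p = 0.074). Without d12 replicate 2 Dcx rose (0.34, adjusted p = 0.041), and without d12 replicate 3 Tuba1a fell (-0.38, adjusted p = 0.040). Mapt, the tau gene, was at 388, 436 and 463 CPM on d12 and 817, 1134 and 1011 CPM on d17 (log2 fold change 1.15, SE 0.13, adjusted p = 0.00022). Kif1a, the motor gene of synaptic vesicle precursors, was at 227, 215 and 219 CPM on d12 and 572, 741 and 632 CPM on d17 (log2 fold change 1.51, SE 0.11, adjusted p = 2.7e-05), and the neurofilament gene Nefh rose by 1.91. Ina, the gene of alpha-internexin, and Dpysl4 fell (-0.58 ± 0.16, adjusted p = 0.019, and -0.52 ± 0.12, adjusted p = 0.0078), and the days overlapped in Ina. Ina did not pass without d12 replicate 2 (adjusted p = 0.073), and neither passed without both libraries (-0.33, adjusted p = 0.17, and -0.24, adjusted p = 0.14). The list had 5 falls without d12 replicate 3, where 5303 of all 20889 genes fell.

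**Figure D3:**
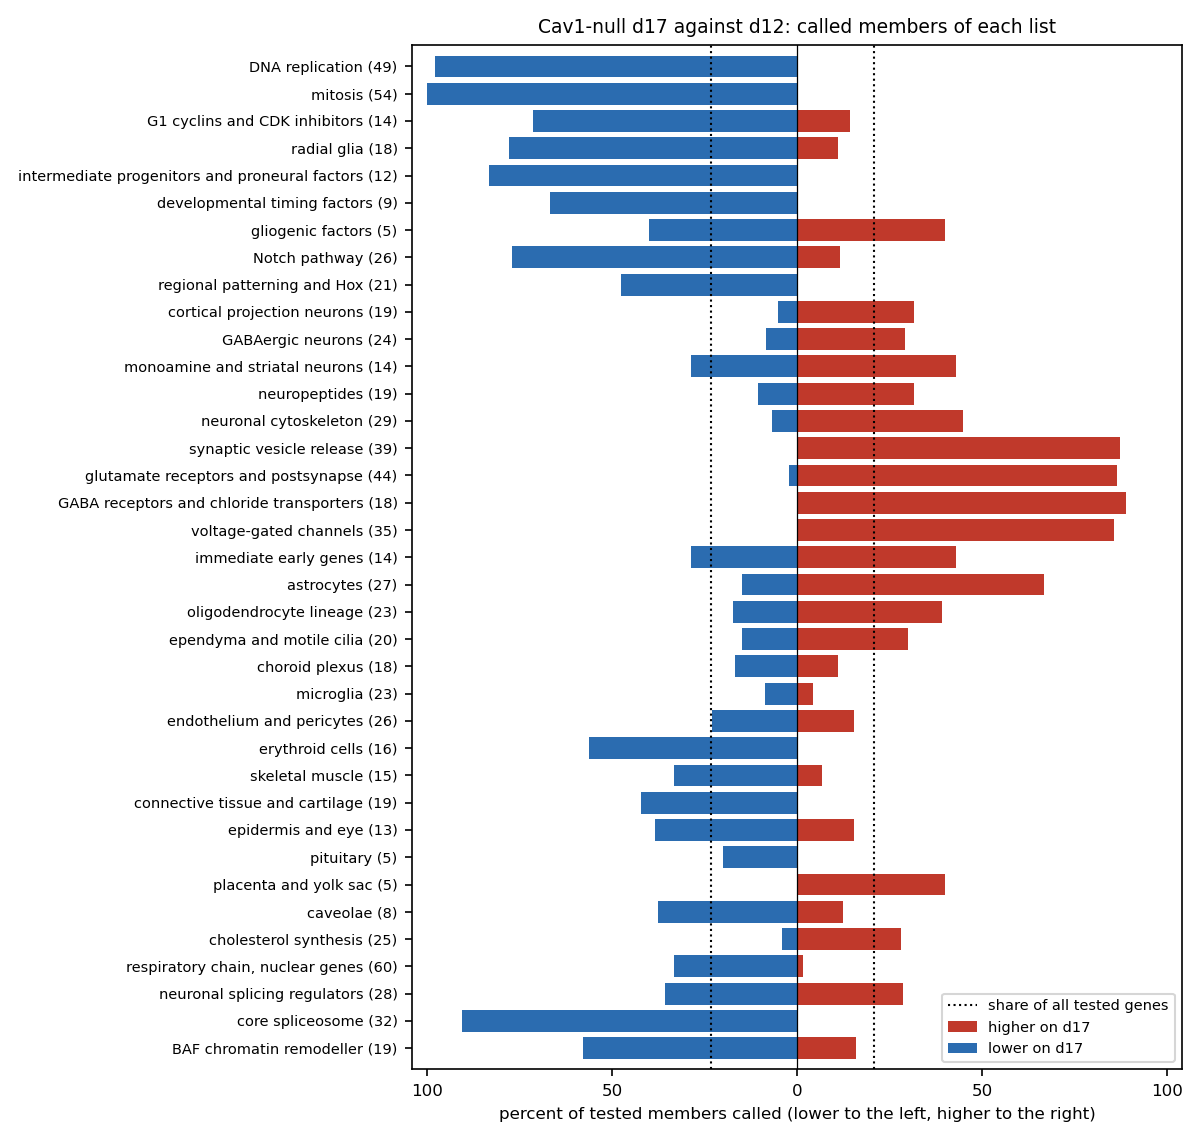
Share of the tested members of each gene list (percent, x axis) that were DE and higher on d17 (to the right) or lower on d17 (to the left), with the number of tested members in brackets and dotted lines at the shares of all tested genes. DNA replication and mitosis genes lie to the left, with 48 of 49 and 54 of 54 lower, and synaptic and channel genes lie to the right, with 34 of 39, 38 of 44, 16 of 18 and 30 of 35 higher.

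Genes of the synapse and of excitability rose as groups, against 20.8% of all genes. Of 39 genes of synaptic vesicle release, 34 rose and 5 were not DE. The median was 0.99, and the list had 2622, 2630.4 and 2688 summed CPM on d12 and 4886, 5545 and 5201 on d17. Syn2, a synapsin gene, was at 21.6, 18.1 and 18 CPM on d12 and 73.3, 76.7 and 73.0 CPM on d17 (log2 fold change 1.90, SE 0.11, adjusted p = 9.3e-06). Cplx1 and Rph3a, which bind the fusion machinery and the vesicle, rose by 1.82 and 1.90, and the priming factor gene Unc13c rose from 5.53 ± 1.80 to 39.2 ± 3.21 CPM. Cplx2, at 182, 197 and 145 CPM on d12 and 199.8, 221 and 236 CPM on d17, the vesicular glutamate transporter gene Slc17a6, at 147, 172 and 147 CPM on d12 and 161, 178 and 183 CPM on d17, and Syt11 were not DE. Both Cplx2 and Slc17a6 were already at 145 CPM or more in each d12 library. Without d12 replicate 2 Cplx2 rose (0.43, adjusted p = 0.046), and Syt11 fell without d12 replicate 3 (-0.35, adjusted p = 0.014) and without both libraries (-0.37, adjusted p = 0.040).

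Of 44 genes of glutamate receptors and the postsynaptic side, 38 rose and 1 fell, with a median of 1.14. Grm5 (ENSMUSG00000049583, chr7:87233376-87784594), a metabotropic glutamate receptor gene, was at 15.7, 15.5 and 15.2 CPM on d12, 86.2, 91.4 and 85.9 CPM on d15 and 191, 208 and 199.9 CPM on d17 (log2 fold change 3.64, SE 0.09, adjusted p = 2.0e-07), with little spread between the libraries of a day. Grm3, a further metabotropic receptor gene, was at 6.53, 7.01 and 8.49 CPM on d12 and 50.2, 60.5 and 58.6 CPM on d17 (log2 fold change 2.89, SE 0.13, adjusted p = 4.7e-06). Dlg2, the gene of a postsynaptic scaffold, was at 46.4, 54.2 and 43.2 CPM on d12 and 240.1, 274 and 273 CPM on d17 (log2 fold change 2.40, SE 0.12, adjusted p = 6.7e-06). The member that fell was Dlg3, a scaffold gene of the same family (-0.24 ± 0.09, adjusted p = 0.0495), and it did not pass without d12 replicate 2 (adjusted p = 0.19). Of 18 tested genes of GABA receptors and chloride transport, 16 rose, with a median of 1.54. The receptor subunit genes Gabra5, Gabrg1 and Gabrg3 led them. Gabra5 was at 6.10, 6.98 and 7.90 CPM on d12 and 79.7, 70.6 and 74.6 CPM on d17 (log2 fold change 3.37, SE 0.12, adjusted p = 2.3e-06), and Gabrg1 at 4.53, 6.04 and 5.80 CPM on d12 and 64.9, 66.5 and 57.3 CPM on d17 (log2 fold change 3.48, SE 0.15, adjusted p = 3.7e-06). The chloride importer gene Slc12a2, at 90.5, 85.3 and 97.4 CPM on d12 and 90.0, 81.6 and 91.9 CPM on d17, and the scaffold gene Gphn were not DE, and Gphn rose without d12 replicate 2 (0.35, adjusted p = 0.032) and without both libraries (0.37, adjusted p = 0.041).

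Of 35 voltage-gated channel genes, 30 rose and 5 were not DE, with a median of 1.20. The pacemaker channel gene Hcn2 rose from 3.42 ± 0.524 to 22.4 ± 5.54 CPM (2.66 ± 0.22, adjusted p = 4.7e-05). Kcnc2, a potassium channel gene of fast-spiking cells, was at 11.2, 9.77 and 10.9 CPM on d12 and 47.2, 44.0 and 43.6 CPM on d17 (log2 fold change 2.04, SE 0.11, adjusted p = 8.3e-06). The sodium channel gene Scn3a, best known from embryonic brain, was at 238, 256 and 286 CPM on d12 and 306, 317 and 291 CPM on d17 and was not DE. Of 14 immediate early genes, 6 rose and 4 fell, beside 20.8% and 23.3% of all genes. Npas4 and Nr4a3, genes induced by neuronal activity, were at 6.78, 5.67 and 6.18 CPM on d12 and 22.4, 26.4 and 19.9 CPM on d17 and at 5.89, 4.79 and 6.78 CPM on d12 and 21.6, 24.5 and 29.8 CPM on d17 (1.84 and 2.08 on the log2 scale), and Egr3 rose by 1.78. Btg2, also known from neurogenic progenitors, fell (-2.09 ± 0.16, adjusted p = 3.6e-05), and Jun and Ier2 fell by 0.81 and 1.54. Arc, the best known gene of this kind at synapses, was at 1.93, 0.759 and 1.09 CPM on d12 and 2.50, 1.99 and 1.31 CPM on d17 and was not DE.

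Genes that rose were longer than genes that fell. The span of a gene was taken from start to end in the annotation, which held 20065 of the 20189 genes. In protein-coding genes, the median span was 42.3 kb for those higher on d17, 21.6 kb for those lower and 25.6 kb for those not DE. Of 967 protein-coding genes that span at least 200 kb, 51.6% were higher and 12.6% lower, against 15.8% and 32.9% of the 3197 genes under 10 kb. By kind of gene, 22.3% of protein-coding genes were higher and 28.3% lower, and for lncRNA genes the shares were 17.6% and 9.74%. Genes are not independent of each other, and long genes include many of the synaptic and channel genes named above.

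Most astrocyte genes rose. Of 27, 18 rose and 4 fell, beside 20.8% and 23.3% of all genes, with a median of 1.36. Gfap (chr11:102778159-102791738), the intermediate filament gene of astrocytes, was at 0.535, 0.303 and 0.947 CPM on d12, 0.931, 1.34 and 2.05 CPM on d15 and 17.9, 7.35 and 16.4 CPM on d17 (log2 fold change 4.50, SE 0.48, adjusted p = 0.00016). Ntsr2, a neurotensin receptor gene of astrocytes, was at 0.285, 0.425 and 0.414 CPM on d12 and 6.78, 7.87 and 6.78 CPM on d17 (log2 fold change 4.18, SE 0.27, adjusted p = 1.9e-05). Agt and Itih3 rose from at most 0.121 and 0.355 CPM in the d12 libraries to 2.29, 3.07 and 2.34 and to 3.09, 4.10 and 3.65 CPM. The members that fell were Slc1a2, Fgfr3, Gja1 and Id3, of which Fgfr3 alone passed without d17 replicate 2 and without d17 replicate 3. Glul, the glutamine synthetase gene, was at 101, 103 and 112 CPM on d12 and 108, 112 and 109.5 CPM on d17 and was not DE, Slc1a2, a glutamate transporter gene, fell (-0.27 ± 0.08, adjusted p = 0.023), and Fgfr3 was at 132, 131 and 86.2 CPM on d12 and 36.5, 38.0 and 38.7 CPM on d17 (log2 fold change -1.68, SE 0.17, adjusted p = 0.00015). Gja1 and Id3 also fell (-1.11 and -1.16), with their highest value in d12 replicate 3 and -0.51 and -0.58 without it, and 1 d17 library overlapped d12 in Gja1. Slc1a2 did not pass without d12 replicate 2 (-0.20, adjusted p = 0.14), and Slc1a2, Gja1 and Id3 did not pass without both libraries (adjusted p = 0.090, 0.11 and 0.11).

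Of 23 tested genes of the oligodendrocyte lineage, 9 rose and 4 fell, beside 20.8% and 23.3% of all genes. Olig1 (chr16:91066660-91068821), a factor gene of the lineage, was at 2.39, 2.58 and 4.08 CPM on d12, 16.4, 15.2 and 11.5 CPM on d15 and 30.1, 42.9 and 43.0 CPM on d17 (log2 fold change 3.63, SE 0.23, adjusted p = 1.6e-05). Gpr17, a receptor gene of committed precursors, was at 1.07, 0.546 and 1.24 CPM on d12 and 12.3, 12.0 and 9.20 CPM on d17 (log2 fold change 3.51, SE 0.31, adjusted p = 6.9e-05), and Lhfpl3, also of precursors, rose by 2.72. Olig2 was at 17.6, 21.4 and 8.05 CPM on d12 and 19.5, 21.4 and 21.9 CPM on d17 and was not DE. Pdgfra, the growth factor receptor gene of the precursors, was at 17.5, 6.58 and 73.4 CPM on d12 and 44.7, 39.3 and 40.3 CPM on d17, with d12 replicate 3 above every d17 library, and it rose by 1.72 without that library (adjusted p = 5.4e-05). Pdgfra is also expressed in connective tissue, whose markers were high in the same library. The myelin gene Mog rose from 9.73 ± 0.0600 to 29.7 ± 2.31 CPM (1.56 ± 0.12, adjusted p = 4.0e-05). Nkx2-2 and the matrix gene Vcan fell (-1.12 ± 0.24, adjusted p = 0.0057, and -0.85 ± 0.09, adjusted p = 0.00020). Of 20 genes of ependyma and motile cilia, 6 rose and 3 fell, beside 20.8% and 23.3% of all genes. Those that rose included genes of the ciliary axoneme, with Ccdc153 at 0.0714, 0.0607 and 0.178 CPM on d12 and 0.939, 3.21 and 2.41 CPM on d17 (log2 fold change 4.28, SE 0.61, adjusted p = 0.00073), Dnah5 (1.41) and Cfap54 (1.19). Those that fell were the factor genes Foxj1 and Mcidas and the cyclin gene Ccno, which start the making of cilia (-0.78, -1.34 and -2.13). Without d12 replicate 3 the count that rose was 13.

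Among the lists for cells other than neurons and glia, erythroid genes had the lowest median, -2.10. Of 19 erythroid genes listed, 16 were tested, 9 fell and 7 were not DE, beside 23.3% of all genes lower, and the list had 5558, 4860.4 and 4569.6 summed CPM on d12 and 2687, 625 and 1806 on d17. The embryonic globins made the largest falls. The adult globin genes Hbb-bs, Hba-a1 and Hba-a2 were not DE, and Hbb-bs was at 554, 412 and 315 CPM on d12, 1636, 2054 and 1983 CPM on d15 and 1487, 317 and 912 CPM on d17 (log2 fold change 1.04, adjusted p = 0.11). The d17 libraries lay far apart, and d17 replicate 2 was the lowest of them in all 3 adult globin genes. Hba-a1 and Hba-a2 are near-identical copies, so the split of reads between them is uncertain. Epb42, of the red cell membrane skeleton, fell from 3.51 ± 0.624 to 0.271 ± 0.0687 CPM (-3.73 ± 0.34, adjusted p = 7.9e-05).

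Of 18 choroid plexus genes, 2 rose and 3 fell, beside 20.8% and 23.3% of all genes. Without d12 replicate 3, which had the most reads of these markers, 7 rose, and without both libraries 5. Prlr, the prolactin receptor gene, was at 1.14, 1.09 and 1.54 CPM on d12 and 14.5, 13.1 and 11.4 CPM on d17 (log2 fold change 3.32, SE 0.22, adjusted p = 2.2e-05), and the roof plate genes Otx2, Lmx1a and Clic6 fell by 1.57, 1.56 and 1.51. Ttr, the transthyretin gene and the main product of the choroid plexus, was at 224, 169 and 692 CPM on d12 and 298, 372 and 334 CPM on d17. It was not DE with all 6 libraries, and it rose without d12 replicate 3 (0.69, adjusted p = 0.00027). Of 26 genes of endothelium and pericytes, 4 rose and 6 fell, beside the same shares of all genes, and the 6 falls were 3 without d17 replicate 2 and 2 without d17 replicate 3. Slco1c1, the thyroid hormone transporter gene of brain vessels, was at 6.03, 5.64 and 19.4 CPM on d12 and 33.9, 38.5 and 40.6 CPM on d17 (log2 fold change 1.83, SE 0.41, adjusted p = 0.0068). The pericyte gene Rgs5 was at 76.3, 72.6 and 88.2 CPM on d12 and 171, 146 and 155 CPM on d17 (log2 fold change 0.95, SE 0.10, adjusted p = 0.00014), while the glucose transporter gene Slc2a1 fell from 37.5 ± 2.08 to 20.3 ± 5.90 CPM (-0.93 ± 0.18, adjusted p = 0.0038). Of 23 microglial genes, 1 rose and 2 fell, beside 20.8% and 23.3% of all genes. Those that fell were Cd68 and Fcer1g (-0.73 and -1.32), and the value of Fcer1g was -0.67 and did not pass without d12 replicate 3 (adjusted p = 0.059), the library with the highest microglial sum. Without that library 4 microglial genes rose, and 4 fell without d12 replicate 2. Neither Cd68 nor Fcer1g passed without d17 replicate 2 or without d17 replicate 3, where 0 microglial genes fell. C1qb, at 8.64, 8.95 and 18 CPM on d12 and 11.5, 8.57 and 9.85 CPM on d17, was among the 20 that were not DE.

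Markers of tissues around the brain fell in part. Of 19 connective tissue and cartilage genes tested, of 23 listed, 8 fell and 11 were not DE, beside 23.3% of all genes lower, and 14 fell without d12 replicate 2 and 5 rose without d12 replicate 3. Col2a1, the cartilage collagen gene, was at 150.4, 102 and 196 CPM on d12 and 19.4, 25.1 and 23.0 CPM on d17 (log2 fold change -2.77, SE 0.21, adjusted p = 3.4e-05), with each d12 library above every d17 library. Col3a1 was at 50.8, 40.7 and 276 CPM on d12 and 23.0, 11.5 and 15.3 CPM on d17, with a log2 fold change of -2.90 that was -1.54 without d12 replicate 3. Col1a1 was at 11.3, 9.83 and 190.2 CPM on d12 and 30.7, 11.3 and 14.6 CPM on d17, was not DE (-1.90, adjusted p = 0.17) and reversed to 0.77 without that library (adjusted p = 0.049). Of 27 skeletal muscle genes, 15 were tested, 5 fell and 1 rose, beside 23.3% of all genes lower and 20.8% higher, and the 4 largest falls, in Tnnt1, Mylpf, Myh3 and Myl1, were in genes at 11 CPM or less in every library and highest in d12 replicate 3. Without that library 3 fell and 7 rose, and Myh3 and Myl1 did not pass (adjusted p = 0.10 and 0.12). Of 13 tested genes of epidermis and eye (22 listed), 5 fell and 2 rose, and of 5 tested pituitary genes (13 listed) 1 fell, beside 23.3% of all genes lower and 20.8% higher. Of 5 tested placental and yolk sac genes (17 listed), Amn and Cubn rose, at 0.821, 0.789 and 1.04 CPM on d12 and 6.81, 9.46 and 6.27 CPM on d17 for Amn, and Afp and Tpbpa were at 3.86 CPM or less in all 6 libraries.

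Of the other genes of caveolae, the plasma membrane pits that caveolin-1 builds, 8 were tested. Cav2, whose protein pairs with caveolin-1, was at 19.1, 13.8 and 18.8 CPM on d12 and 33.3, 22.4 and 29.8 CPM on d17 (log2 fold change 0.68, SE 0.18, adjusted p = 0.015). The coat gene Cavin1 was at 8.85, 8.80 and 46.6 CPM on d12 and 9.18, 8.76 and 9.16 CPM on d17 and was not DE. Ehd2, Pacsin2 and Cavin4 fell by 1.37, 0.64 and 0.56. None of these falls passed without d17 replicate 2 or without d17 replicate 3. Cavin4 did not pass without d12 replicate 2 (-0.50, adjusted p = 0.11). Cav2, Cavin4 and Ehd2 did not pass without both libraries (adjusted p = 0.061, 0.15 and 0.096). Cavin1 fell without d12 replicate 2 (-1.57, adjusted p = 0.047) and was at -0.05 without d12 replicate 3. Cavin1 and Ehd2 were highest in d12 replicate 3, and the value of Ehd2 was -0.69 without it.

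In metabolism and RNA processing, the core spliceosome stood out by the uniform sign of its changes. Of 32 genes, 29 fell and 3 were not DE, beside 23.3% of all genes lower, with a list median of -0.74 and 4529, 4558 and 4131 summed CPM on d12 and 2931, 3018 and 3090.0 on d17. The changes were small, and 5 of the 29 were at least 1 in size. Snrpb, a gene of the ring of proteins around the small nuclear RNAs, was at 140.3, 146 and 117 CPM on d12 and 46.6, 56.6 and 57.9 CPM on d17 (log2 fold change -1.38, SE 0.13, adjusted p = 8.2e-05), and Snrpg fell by 1.29. Sf3b1 was at 664, 679 and 667 CPM on d12 and 614, 565 and 595 CPM on d17 and Snrnp70 at 580.2, 532 and 571 CPM on d12 and 490.5, 521 and 521 CPM on d17, and neither was DE. Of 28 neuronal splicing regulators, 8 rose and 10 fell, beside 20.8% and 23.3% of all genes. Without d17 replicate 3, where the count of all genes that fell was also lowest, 5 of these regulators fell. Ptbp1, which holds back neuronal exons in progenitors, was at 112, 93.7 and 106 CPM on d12 and 48.9, 47.5 and 50.6 CPM on d17 (log2 fold change -1.13, SE 0.09, adjusted p = 4.1e-05). Rbfox1, a regulator of neurons, was at 41.3, 46.8 and 59.6 CPM on d12 and 113, 117 and 133 CPM on d17 (log2 fold change 1.25, SE 0.13, adjusted p = 0.00013). Celf2 and Celf4 rose by 0.86 and 0.75, and Msi1, an RNA-binding gene of neural stem cells, fell by 1.22.

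Of 19 subunit genes of the BAF chromatin remodeller, 3 rose and 11 fell, beside 20.8% and 23.3% of all genes. Actl6a, whose subunit serves in progenitors, was at 76.6, 91.6 and 66.1 CPM on d12 and 23.2, 23.0 and 23.3 CPM on d17 (log2 fold change -1.81, SE 0.14, adjusted p = 4.4e-05). Actl6b, whose subunit takes its place in neurons, went from 98.9 ± 8.92 to 124 ± 9.02 CPM (0.28 ± 0.10, adjusted p = 0.048). The rise of Actl6b was small and did not pass without d12 replicate 3 (adjusted p = 0.066), while the days were far apart in Actl6a. Smarcd3 and Smarca2 also rose (0.69 and 0.64), and Smarce1 fell from 357 ± 31.9 to 163 ± 6.48 CPM (-1.18 ± 0.10, adjusted p = 6.7e-05). Of 25 genes of cholesterol synthesis and its control, 7 rose and 1 fell, beside 20.8% and 23.3% of all genes. Lss, the lanosterol synthase gene, rose from 75.1 ± 4.02 to 109 ± 5.99 CPM (0.49 ± 0.08, adjusted p = 0.0012). Ebp, a sterol isomerase gene, fell (-0.75 ± 0.18, adjusted p = 0.0095) and did not pass without both d12 libraries (adjusted p = 0.058). Of 60 nuclear genes of the respiratory chain, 20 fell and 1 rose, beside 23.3% and 20.8% of all genes. Ndufa2, a subunit gene of the NADH dehydrogenase complex, was at 81.2, 88.2 and 86.8 CPM on d12 and 60.2, 49.2 and 57.2 CPM on d17 (log2 fold change -0.67, SE 0.11, adjusted p = 0.0012), and Cox4i1 was at 221, 271 and 271 CPM on d12 and 277, 222 and 249 CPM on d17 and was not DE. The count that fell was not stable, since 7 fell without d12 replicate 2, 8 without d17 replicate 1, 5 without d17 replicate 2 and 5 without d17 replicate 3.

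On d15 most of the net change was under way. Of the 2329 DE genes that rose by at least 1, 2218 (95.2%) had a mean on d15 between those of d12 and d17, and the median gene had made 58.9% of its log2 change by then. Of the 1498 that fell by at least 1, 1407 (93.9%) lay between, with a median of 59.6%. The pace of the lists is given as a description, with no test. The median was 52.2% in the 54 mitosis genes, 58.1% in the 48 DNA replication genes, 62.5% in the 38 glutamate receptor genes that rose and 45.8% in the 10 genes of intermediate progenitors. It was 40.4% in the 18 astrocyte genes that rose and 32.0% in the 6 genes of ependyma, so that more of their change lay after d15. In the 20 respiratory chain genes that fell it was 15.3%, and 11 of them lay between. Aqp4, for example, was at 2.03, 1.76 and 4.41 CPM on d12, 4.69, 5.05 and 4.17 CPM on d15 and 54.7, 37.4 and 38.4 CPM on d17, with no d15 library above 5.05 CPM.

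**Figure D4:**
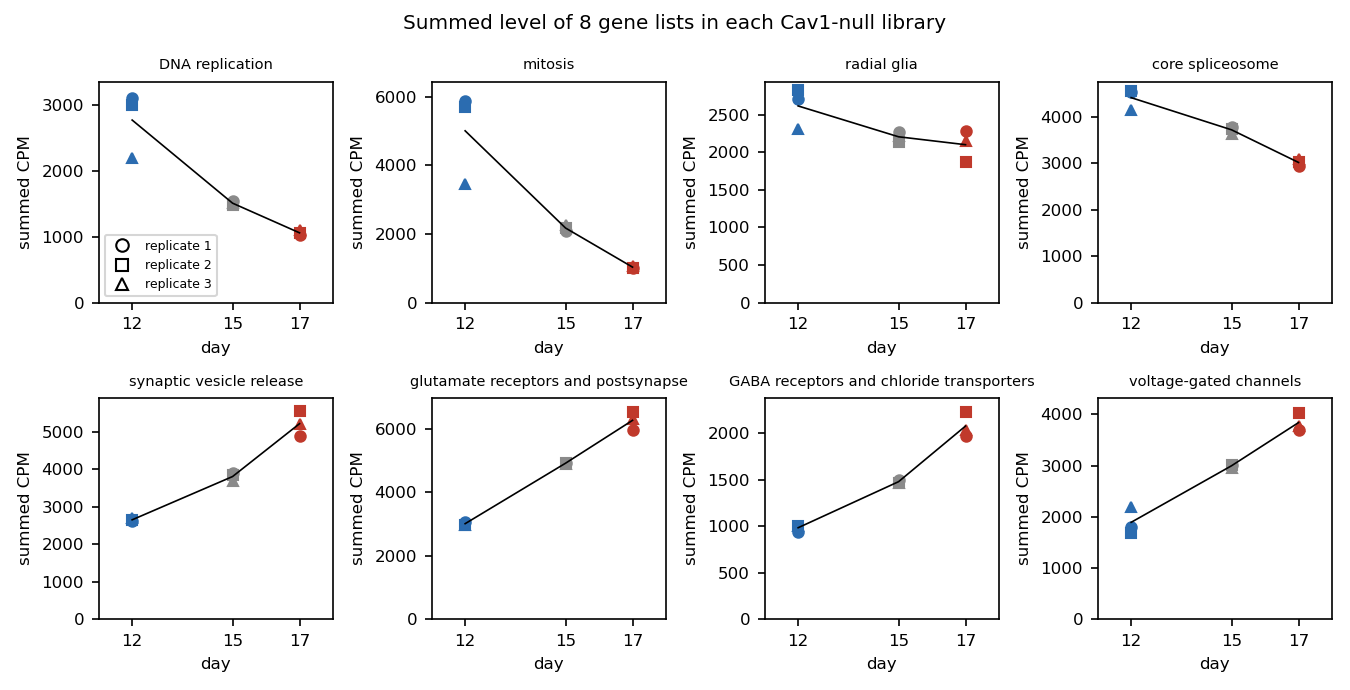
Summed CPM (y axes, from 0) of 8 gene lists in each of the 9 Cav1-null libraries by gestational day (x axis), with points for libraries and a line through the means. Mitosis genes fall from 3463 to 5867 summed CPM on d12 to 1008 to 1080 on d17, and glutamate receptor genes rise from 2973 to 3064 to 5948 to 6536.

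Some genes departed on d15 from the midpoint of their d12 and d17 levels. The level of d15 was tested against the mean of d12 and d17 on the log2 scale over the 9 Cav1-null libraries, and 116 of 21064 genes (0.551%) departed, 82 upward (0.389%) and 34 downward (0.161%). Sla, an adaptor gene of receptor signalling, was at 4.75, 4.70 and 2.60 CPM on d12, 55.6, 54.0 and 67.2 CPM on d15 and 50.5, 46.8 and 70.4 CPM on d17 (difference 1.96 ± 0.18, adjusted p = 0.0020). Its d15 and d17 libraries overlapped. Abcc8, a subunit gene of an ATP-sensitive potassium channel, was at 11, 5.83 and 5.65 CPM on d12, 45.2, 47.6 and 40.6 CPM on d15 and 25.8, 34.6 and 33.1 CPM on d17 (1.53 ± 0.18, adjusted p = 0.0058) and was highest on d15. The lncRNA gene 2600014E21Rik was at 8.14, 7.07 and 3.82 CPM on d12, 20.6, 21.8 and 24.5 CPM on d15 and 9.42, 7.61 and 9.99 CPM on d17 (1.54 ± 0.21, adjusted p = 0.015), with its d12 and d17 libraries in overlapping ranges. Dkk3, of the Dickkopf family, dipped, with 18.2, 17.8 and 26.8 CPM on d12, 12.3, 9.90 and 8.51 CPM on d15 and 17.9, 19.7 and 25 CPM on d17 (-1.04 ± 0.16, adjusted p = 0.027). Crabp2, which carries retinoic acid, and Hmga2 were the other kind, low by d15 and little changed after, with 44.5, 50.8 and 80.3 CPM on d12, 9.31, 10.8 and 10.6 CPM on d15 and 9.42, 7.57 and 7.40 CPM on d17 for Crabp2 (-1.10 ± 0.17, adjusted p = 0.025). A departure need not be a peak or a dip, nor an uneven pace, since d15 is nearer in days to d17 than to d12. The count was unstable, with 1041 genes without d12 replicate 3, 730 with no filter on low counts, 712 with DESeq2 and 3 genes when all 27 libraries were fitted in 1 model.

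Whether the change from d12 to d17 differed from that in the other strains was tested by the interaction of strain and day over 12 libraries. Against C57BL/6J, the background strain of the Cav1-null line, 1 of 21675 genes (0.00461%) was called, where 864 genes had an unadjusted p under 0.05 and DESeq2 called 15. The count was 0 with at least 10 reads in every library, with the replicate block, with all 27 libraries in 1 model and without both Cav1-null d12 libraries that stood apart, and 0 to 7 when 1 library was left out. In C57BL/6J itself, 5170 of 19762 genes were DE between these days. Its libraries of a day also lay apart, with 548 to 1480 summed CPM of connective tissue markers on d12 and 1249, 183 and 268 on d17, and with 625 to 1773 CPM of Tubb3 on d17. Without C57BL/6J d17 replicate 1, the highest of its day in connective tissue markers, 2 genes were called. The gene called with all 12 libraries was Rpl34-ps1, a processed pseudogene of a ribosomal protein, at 0.714, 0.607 and 0.325 CPM on d12 and 0.417, 0.222 and 0.379 CPM on d17 in Cav1-null mice. It was at 0.143 to 0.283 CPM on d12 and 4.27 to 11.4 CPM on d17 in C57BL/6J (difference of log2 fold changes -5.56 ± 0.66, adjusted p = 0.040). Reads of such a copy can come from its parent gene, and the counting of reads with several matches is not given in the sources used here. A gene that was not called is not shown to have changed alike in the 2 strains.

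Against AKR/J, 2395 of 21943 genes (10.9%) were called, with 744 higher and 1651 lower in Cav1-null mice. With library sizes alone in place of TMM factors, the split was 388 higher and 1971 lower, and the median difference over all genes moved from -0.06 to -0.41. AKR/J itself had 9165 DE genes of 20030. The genes with the smallest p were mostly low in the AKR/J d12 libraries. Grm5 was at 0.489 to 0.706 CPM on d12 and 126 to 152 CPM on d17 in AKR/J, against 15.7, 15.5 and 15.2 and 191, 208 and 199.9 CPM in Cav1-null mice (difference -3.76 ± 0.21, adjusted p = 2.0e-06). Ablim3, an actin-binding gene, was at 1.71 to 2.61 and 141 to 171 CPM in AKR/J and went from 39.7 ± 8.87 to 215 ± 13.1 CPM (mean ± SD, n = 3) in Cav1-null mice (-3.30 ± 0.24, adjusted p = 1.6e-05). Glra2, a glycine receptor gene, and Hpcal4, a neuronal calcium sensor gene, differed by -3.42 ± 0.24, adjusted p = 1.6e-05, and by -2.78 ± 0.19, adjusted p = 1.6e-05. Nr1h5, a nuclear receptor gene, was at 26.5 to 71.4 CPM on d12 and 1.06 to 2.18 CPM on d17 in AKR/J and at 0.214, 0.152 and 0.148 CPM on d12 and 0.591, 0.628 and 0.413 CPM on d17 in Cav1-null mice (6.79 ± 0.50, adjusted p = 1.6e-05). In the d12 libraries of AKR/J, the sums were 35763 to 136332 CPM for erythroid and 44.9 to 1659 CPM for placental markers, against 4570 to 5558 and 3.60 to 8.58 CPM in those of the Cav1-null strain, and their part in these differences was not tested. Without both d12 libraries that stood apart, 732 genes were called, without Cav1-null d17 replicate 1, 907, and without AKR/J d12 replicate 2, 6452. DESeq2 called 3603.

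Splice junctions gave a readout that gene counts do not hold. For each junction, the share of its reads among all junctions that use the same splice site was compared on the scale of log2 ratios with limma, at sites with at least 20 reads in each of the 6 libraries. Of 9495 junctions tested, 20 (0.211%) were called, in 15 of 3676 genes, and 1447 had an unadjusted p under 0.05. The count was 4 at sites with at least 50 reads in each library and 0 with the replicate block. The share moved by at least 20 percentage points for 13 of the 20. Junctions with few reads or reads of several matches had been removed from the table by the authors, so that a share of 0 can stand for removed reads. The 20 were in genes outside the gene lists.

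Among the 20, the largest change in share was in Ktn1, the gene of kinectin, a membrane anchor of the endoplasmic reticulum. The junction chr14:47941735-47941876, which leads into an exon of 69 bases, had 100% of the reads of its site in each d12 library, 9.88%, 5.92% and 100% in the d15 libraries and 4.35, 3.15 and 5.52% on d17 (adjusted p = 0.0013). The junction that skips this exon, chr14:47941735-47943219, went from 0% in all 3 d12 libraries to 91.9 ± 2.19% on d17 (mean ± SD, n = 3). A site total of 41 to 56 reads lay behind each d12 value, and d15 replicate 3, with 30 reads, was like d12. The total for the skipping junction also counts the junction that leaves the exon and ends at 47943219. It was 44, 41 and 56 reads in the d12 libraries and 30 in d15 replicate 3, equal to the reads into the exon alone. In these libraries the table thus held no reads out of the exon to that end, although inclusion needs them. Whether the 0% of these libraries is a true 0 or removed reads was not tested, so a switch from inclusion to skipping is not shown. The exon is coding and 69 is a multiple of 3, so the reading frame is kept without it. In Tcf7l2, the gene of a factor of Wnt signalling, the junction chr19:55914482-55915115 went from 67.0 ± 3.93% to 4.67 ± 2.02% (adjusted p = 0.021), and a competing one that ends at 55916161 went from 0 to 86.2 ± 7.67% (adjusted p = 0.011). In Rcbtb1, a junction from 59439034 to 59447373 on chromosome 14 went from 0 to 77.9 ± 2.51% (adjusted p = 0.0022), although 2 of the 3 d15 libraries had none. In Paxx, of DNA end joining, the junction chr2:25349872-25350020 went from 75.3 ± 4.38% to 0% (adjusted p = 0.0022).

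Junctions with shares above 0 on both days that did not pass at this threshold are given for 4 further genes, picked after their values were seen. There were others, such as a second junction of Paxx, chr2:25349928-25350020, at 16.6 ± 5.50% on d12 and 70.0 ± 14.5% on d17 (adjusted p = 0.11). Pkm, the pyruvate kinase gene, has a pair of mutually exclusive exons of 167 bases each, in a region where the annotation also places Gm49759. The junction into the exon chr9:59582851-59583017 had 71.6, 64.3 and 64.6% on d12, 40.8, 36.1 and 44.5% on d15 and 22.1, 22.8 and 25.6% on d17 (adjusted p = 0.072), with no overlap between the days. The other share is that of the exon chr9:59582312-59582478. In Dnmt3a, the gene of a methyltransferase that acts on unmethylated DNA, the junction chr12:3941861-3945542 was at 58.3 ± 7.18% and 7.57 ± 6.47% (adjusted p = 0.087). In Zfp207 it was 57.4 ± 5.79% and 16.4 ± 2.62% for chr11:80282819-80285111 (adjusted p = 0.079). Actn4, an actin crosslinker gene, had 61.3 ± 1.54% and 21.4 ± 1.83% for chr7:28594085-28594856 (adjusted p = 0.072). Actn4 has a pair of exclusive exons here, of 81 and 66 bases. With the reads of each library as weights, an alternative chosen after the data were seen, 527 junctions were called, and Pkm had an adjusted p of 4.2e-06, Dnmt3a 0.0038, Zfp207 7.4e-05 and Actn4 0.0011.

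The skipped exon of Ktn1 and the exclusive exons of Pkm are shown because the shares above turn on them. They were read from the GRCm39 genome on the strand of the gene, and in the Pkm pair the exon whose share was high on d12 stands first.

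Ktn1 chr14:47941877-47941945 (+): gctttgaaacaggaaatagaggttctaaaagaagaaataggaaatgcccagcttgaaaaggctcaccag

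Pkm chr9:59582851-59583017 (+): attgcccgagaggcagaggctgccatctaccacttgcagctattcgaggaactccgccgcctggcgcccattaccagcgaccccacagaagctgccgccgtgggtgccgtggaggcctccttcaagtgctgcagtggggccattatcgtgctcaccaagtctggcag

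Pkm chr9:59582312-59582478 (+): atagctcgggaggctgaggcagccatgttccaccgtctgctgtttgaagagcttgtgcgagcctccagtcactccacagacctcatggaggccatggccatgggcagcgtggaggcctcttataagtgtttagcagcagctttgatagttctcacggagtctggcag

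**Figure D5:**
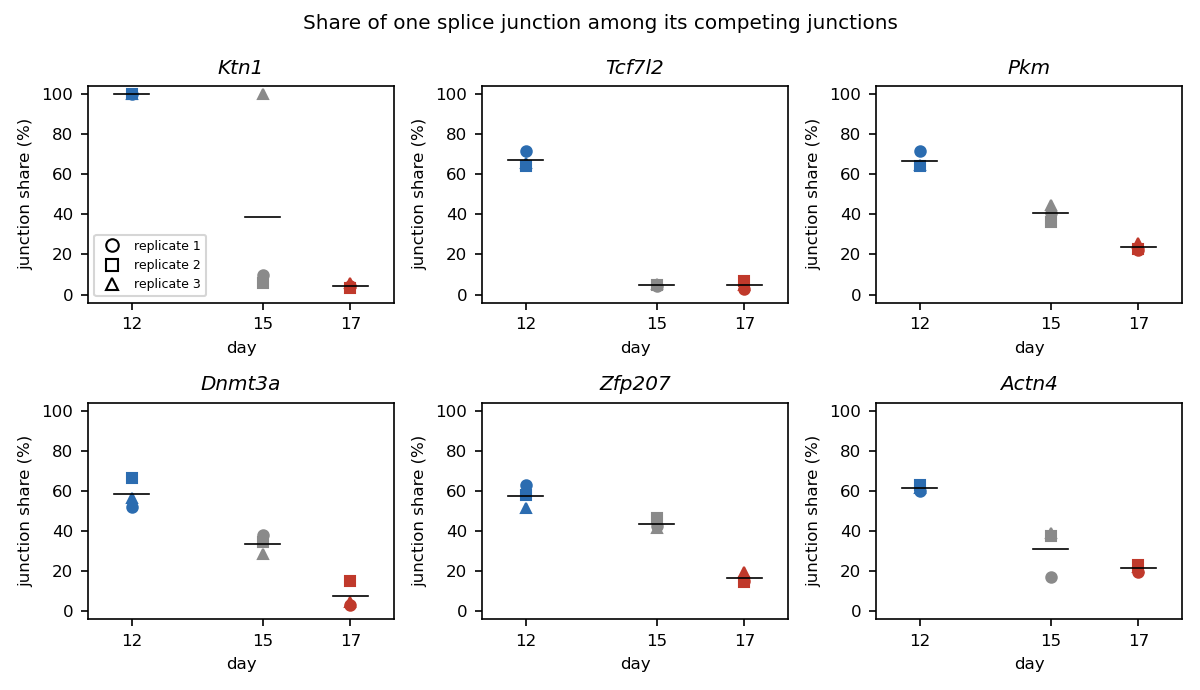
Share of a splice junction among the junctions that compete for its splice site (percent, y axis) in each Cav1-null library by gestational day (x axis), for junctions of Ktn1, Tcf7l2, Pkm, Dnmt3a, Zfp207 and Actn4. The junctions were chosen by their change in share or after their values were seen. That d12 and d17 libraries do not overlap in these 6 genes is therefore no separate result. In Pkm the share was 64.3% or more on d12 and 25.6% or less on d17.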

How the data were processed

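Whole fetal brain RNA was sequenced as 150-base pairs after poly-T selection. The authors trimmed the reads with cutadapt and fastp, aligned them to GRCm39 with STAR and deposited raw counts per gene and counts of reads per splice junction, from which junctions with multi-mapped, short-overhang or few reads had been removed. The counting program, its strand setting and tool versions are not given in the sources used here.

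From the deposited counts, genes passing edgeR's filterByExpr were normalised by TMM and tested with the quasi-likelihood test (edgeR 4.0.16, R 4.3.3) on the 6 libraries without covariates, with Benjamini-Hochberg adjustment over all genes. Values of the test in other fits are given as alternatives, DESeq2 1.42.0 among them. SE is the size of the log2 fold change over the root of the F statistic. Junction shares were tested with limma 3.58.1 after adding 0.5 reads. Sample groups came from the labels. The tests were checked on simulated data.

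Genes were named by rule: Cav1; the 12 largest rises and falls; per gene list up to 4 DE genes each way and 3 others with the highest level; the 5 interactions with the smallest p; the 4 largest departures each way; and the 4 largest junction changes. Tubb3, Gad1 and Neurod6 check the tissue. Some genes named by the rule are not reported here. The members and lists were chosen with earlier results of these data known. Promoters came from RefSeq (GRCm38.p6), and all other coordinates are GRCm39. Interval and read counts cover counting error only.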

Additional observations from a re-analysis of the deposited data

Results flagged for a closer look

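The change from d12 to d17 differed from that in another strain in these cases, tested with edgeR as a difference of the changes. Against C57BL/6J, 1 gene was called, the pseudogene Rpl34-ps1, with a difference of log2 fold changes of -5.56. Against AKR/J, 2395 genes were called. The 5 with the smallest p were Ablim3 (-3.30), Glra2 (-3.42), Grm5 (-3.76), Hpcal4 (-2.78) and Nr1h5 (6.79), where a negative value is a smaller rise or a larger fall in Cav1-null mice. For each of the first 4, the AKR/J libraries of d12 were at 4.52 CPM or less.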

How the results depend on the processing

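Of the 321 named genes tested for the net change, 274 to 314 kept their direction and their side of the threshold, depending on the setting, and 0 reversed when the scaling, the filter or the tool was changed. Without d12 replicate 3, Atoh1 (-1.45 to 3.21 when 1 library was left out), Col1a1 (-2.40 to 0.77), En1 (-1.04 to 0.66) and Ttr (-0.41 to 0.69) reversed, that is, changed sign and were DE. Without both d12 libraries that stood apart, all 4 values had the same sign as without replicate 3 (2.20, 0.72, 0.57 and 0.54). The count of DE genes was 8594 to 8884 with other scalings (library sizes alone, RLE, upper quartile) or DESeq2, 8747 with no filter, 8037 with at least 10 reads in every library, 7447 in 1 model of all 27 libraries, and 6335 to 10617 when 1 library was left out (3384 to 5314 higher, 2951 to 5303 lower), lowest for lower genes without d17 replicate 3. At a log2 fold change of at least 1 it was 3827 (2329 higher, 1498 lower).

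The interaction with C57BL/6J gave 0 genes with at least 10 reads in every library, with the block, with all 27 libraries and without both d12 libraries, 15 with DESeq2 (2 higher, 13 lower), and 0 to 7 when 1 library was left out (0 to 1 higher, 0 to 7 lower). That with AKR/J gave 388 higher with library sizes alone, 1304 higher with no filter, 3603 (1458 higher) with DESeq2, 1122 higher with all 27 libraries, 732 (143 higher, 589 lower) without both d12 libraries, and 907 to 6452 when 1 library was left out (204 to 2475 higher, 703 to 3977 lower), lowest without Cav1-null d17 replicate 1 and highest without AKR/J d12 replicate 2. Departures at d15 numbered 730 (409 and 321) with no filter, 712 (361 and 351) with DESeq2, 3 (3 and 0) with all 27 libraries, 735 (453 and 282) without both d12 libraries, and 3 to 1041 when 1 library was left out (3 to 592 upward, 0 to 449 downward).

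Junction calls numbered 4 and 37 at minimums of 50 and 10 reads, 31 at a pseudocount of 2, 21 to 36 when 1 library was left out, and, in alternatives chosen after seeing the data, 68 without both d12 libraries, 527 with reads as weights, 342 with reads on both sides in all 6 libraries and 533 with both. For none of these was the cause tested.

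Replicate numbers were shared between days. Deviations from the mean of the day had correlations of -0.17, 0.03 and -0.18 in same-numbered libraries. In pairs with unlike numbers they ran from -0.15 to 0.21. Centring on the mean of each day balances such values around 0, so whether same-numbered libraries share more than a number cannot be told. With the replicate block the net change had 7434 DE genes, the AKR/J interaction 466 higher, departures 19 (14 and 5) and junctions 0.

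Lists whose counts moved by over 1.5 times included the respiratory chain (20 lower, 7 without d12 replicate 2 and 6 with all 27 libraries), GABAergic neurons (2 lower, 11 without d12 replicate 3), neuropeptides (6 higher, 12), choroid plexus (2 higher, 7), connective tissue (0 higher, 5), the cytoskeleton (13 higher, 7 with all 27 libraries) and erythroid cells (9 lower, 3 with at least 10 reads in every library). Without d17 replicate 3, 5 splicing regulators fell (10 with all libraries), 2 genes of the oligodendrocyte lineage (4), 2 of monoamine and striatal neurons (4), 5 of connective tissue (8) and 0 of the cytoskeleton (2). Junction shares rest on few reads at many sites, and genes near 0 CPM cannot be compared at this depth.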
